A study of Mus musculus with 4 samples.

Results

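The 10 genes described here are *Trp53*, which encodes the transcription factor p53, and 9 genes of its pathway: *Cdkn1a*, *Mdm2*, *Bax*, *Bbc3*, *Pmaip1*, *Ccng1*, *Trp53inp1*, *Eda2r* and *Phlda3*. They were chosen by their symbols, and all 10 were present among the 32285 genes of the matrices. Transcripts were counted in single cells that carried tdTomato and had been sorted from the forebrain of C57BL/6 mice at postnatal day 5. All mice carried NestinCreERT2 and the tdTomato reporter, and all had been exposed to tamoxifen at embryonic day 14.5, which activates the recombinase in cells that express Nestin at that time. Controls carried both intact *Chd8* alleles (NestinCreERT2/tdTomato/Chd8+/+), and mutants carried 1 floxed allele (NestinCreERT2/tdTomato/Chd8+/F), so that recombination leaves the cells heterozygous. There were 2 libraries per genotype, each from cells of pooled mice, so differences among mice are not visible and p-values reflect the spread between libraries alone.

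p53 is kept scarce in unstressed cells by the ubiquitin ligase MDM2, and is stabilized after DNA damage and other stresses. It then binds DNA and activates genes that halt the cell cycle, such as *Cdkn1a*, genes that trigger apoptosis, such as *Bax*, *Bbc3* and *Pmaip1*, and *Mdm2* itself, which closes a negative feedback loop. Because p53 is controlled mainly at the level of the protein, the amount of *Trp53* transcript does not measure its activity. *Chd8* encodes a chromatin remodeler that is known from other systems as a negative regulator of p53-dependent transcription.

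p53 binds a pair of similar half-sites of 10 bases each, whose core reads CWWG, where W is A or T. Windows from 250 bases before to 50 bases after the RefSeq transcription start (build GRCm38.p6) were searched for a pair of p53 half-sites. The pair had no spacer, and the C and G of both cores had to match, while a W could be a mismatch. The search covered both strands, and 8 of the 10 genes had a window. A pair with at most 1 mismatch was found in 22 of 32851 windows of all genes (0.0670%), among them a window each of *Cdkn1a* and *Ccng1*. No further member was added when 2 mismatches were allowed, when 0.326% of all windows held a pair. The stretches around both pairs are shown because both genes recur in the comparisons below, and the pair is in capitals:
Cdkn1a, chr17:29090903-29090972, plus strand: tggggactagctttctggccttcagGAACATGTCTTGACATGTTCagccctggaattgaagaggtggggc
Ccng1, chr11:40755437-40755506, minus strand: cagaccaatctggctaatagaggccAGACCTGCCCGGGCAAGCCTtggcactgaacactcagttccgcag
The pair lay 51 to 32 bases before the more upstream RefSeq start of *Cdkn1a* and 195 to 176 bases before the start of *Ccng1*. The mismatch of *Ccng1* was a C in place of a W inside the first core, and that of *Cdkn1a* lay outside the cores. The window of another *Cdkn1a* start, chr17:29093519-29093818, held no pair. Such a match is a description of the sequence, and binding of p53 was not measured.

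Of 27742 barcodes, 17623 cells passed the filters, with 2973 to 5710 cells per library. The kept cells held 37355364 to 73584401 unique molecular identifiers (UMIs, tags that mark single captured transcripts) per library. Levels are given as counts per 1000000 UMIs of a cell class (CPM). Both libraries of replicate 1 were counted with Cell Ranger 7.0.0 and both of replicate 2 with version 5.0.1, per the file headers. The share of barcodes with over 10% mitochondrial counts was 9.38 and 12.3% in replicate 1 and 44.0 and 37.8% in replicate 2. The replicates also differed in *Xist*, the transcript that silences the inactive X (0.149 and 0.153 CPM against 1633 and 1749 CPM). The mice of this assay are described as male, and the level in the libraries of the second replicate goes against this. Software version, cell quality and the mice with their sex therefore cannot be told apart as sources of a difference between replicates, while each genotype had 1 library of each kind. *Chd8* was counted at 61.7 and 89.8 CPM in the controls and at 68.7 and 94.9 CPM in the mutants, so it was not lower in the mutant libraries (log2 difference 0.09 ± 0.33 SE, edgeR adjusted p = 0.99999). The 3′ tags are counted near transcript ends and need not fall in the deleted exons. Pairs of libraries shared 2 to 15 barcodes of kept cells.

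The cells were clustered without the genes of the p53 pathway and named from fixed markers as astrocyte-like, ependymal-like, oligodendrocyte-like and so on, and the names are used below without the ending. There were 17 classes, of which 14 had at least 20 cells in every library. Although the labels call the cells neuronal, 4127 were astrocytes, 2516 were oligodendrocyte precursor cells (OPCs) and 882 were ependymal. Microglia (361 cells) and pericytes or mural cells (570 cells) do not derive from neural progenitors, and their recombination was not tested. The microglia class was not split from border macrophages. With finer clusters, 264 cells were named microglia and 98 were named border macrophages. A class of progenitors was named by its leading marker, *Veph1*. Clusters of astrocytes and mural cells were largely, and those of OPCs partly, separated by replicate. The largest astrocyte cluster held 736 and 711 cells of control and mutant replicate 1, and 1 and 0 of control and mutant replicate 2. In the next largest these numbers were 23 and 30 against 613 and 621.

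*Trp53* transcripts were most abundant in immature neuronal cells and least abundant in ependymal cells. In excitatory precursors, *Trp53* was counted at 159, 142, 125 and 136 CPM in control replicate 1, mutant replicate 1, control replicate 2 and mutant replicate 2, an order kept for all lists of 4 values below. The mean was 141 CPM ± 14.2 (SD, n = 4 libraries of both genotypes), against 117 ± 13.9 in dividing cells of the inhibitory lineage (127, 129, 115 and 98.5 CPM). These classes overlapped with each other, and both lay above excitatory neurons (85.9 ± 6.34) in all 4 libraries with no overlap. Both had scores of dividing markers above 3 (3.975 in excitatory precursors and 4.693 in dividing inhibitory-lineage cells). Within these classes immaturity and division therefore cannot be told apart. Dividing astrocyte-lineage cells and dividing OPCs had 68.7 ± 12.5 and 56.9 ± 4.28 CPM. The part of each in the *Trp53* level was not tested. Astrocytes had 46.7, 41.8, 40.2 and 41.3 CPM. Ependymal cells had 24.1, 19.6, 19.1 and 10.1 CPM and overlapped with no other class.

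*Mdm2*, whose product ubiquitinates p53, showed the opposite extreme in ependymal cells, with 187, 165, 122 and 139 CPM (mean 153 ± 28.7, SD, n = 4). The next class, oligodendrocytes, reached 81.7 ± 12.3 CPM, below the ependymal range in every library. From oligodendrocytes to mural cells, the lowest class at 36.5 ± 8.99 CPM, every class overlapped with the next. Ependymal cells thus held the highest *Mdm2* level and the lowest *Trp53* level of the 14 classes.

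**Figure D1:**
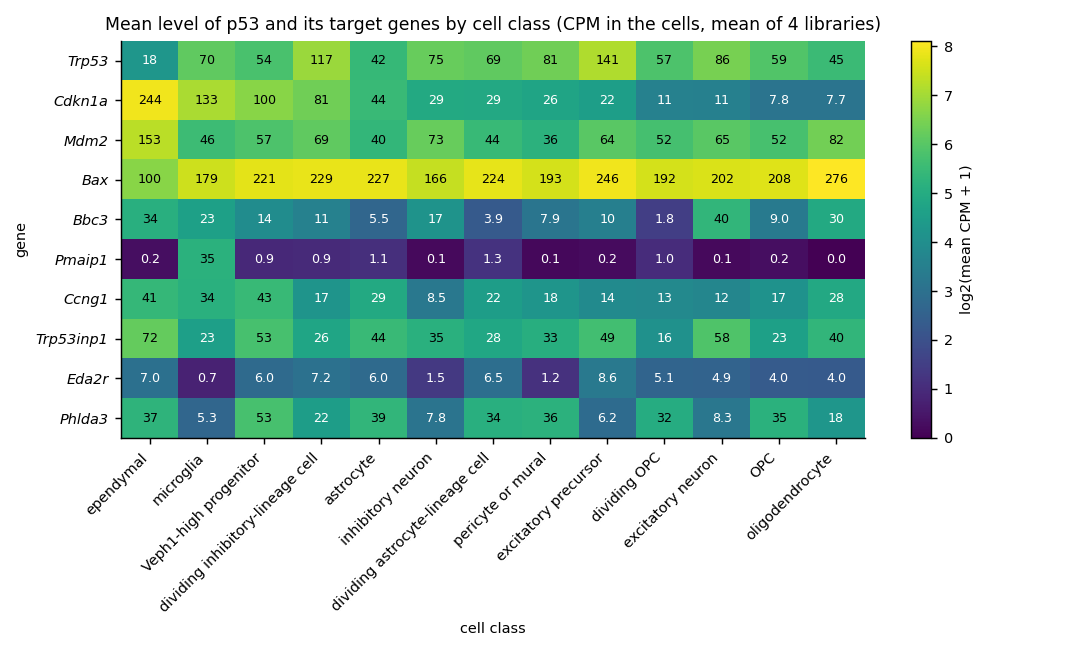
Mean level of each gene (rows) in each of 13 cell classes (columns), printed in CPM and colored by log2(mean CPM + 1), over 4 libraries. *Cdkn1a* and *Mdm2* are highest in the ependymal column (244 and 153 CPM), where *Trp53* and *Bax* are lowest, and *Pmaip1* is above 2 CPM in the microglia column alone.

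Of the genes that halt the cell cycle, *Cdkn1a* encodes the inhibitor p21 of cyclin-dependent kinases. It was most abundant in ependymal cells, at 249, 265, 205 and 257 CPM (mean 244 ± 27.0), with no overlap with microglia (156, 75.4, 108 and 194 CPM). *Veph1*-high progenitors had 55.1, 75.6, 134 and 135 CPM, and this class, microglia and dividing inhibitory-lineage cells (54.8, 47.4, 90.4 and 133 CPM) overlapped with one another. Astrocytes had 24.1 and 26.6 CPM in replicate 1 and 65.3 and 60.5 CPM in replicate 2, so that the replicates did not overlap while the genotypes did. Oligodendrocytes had the lowest mean, 7.71 ± 12.3 CPM from 30 counts, and 25.9 CPM in control replicate 2 against 0 to 4.42 CPM in the other libraries.

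*Ccng1*, which encodes cyclin G1, a regulator in the feedback between p53 and MDM2, had its highest levels in *Veph1*-high progenitors (26.1, 32.7, 55.4 and 58.9 CPM) and ependymal cells (31.4, 29.7, 50.8 and 53.4 CPM), which overlapped. Microglia and astrocytes followed at 34.4 ± 7.63 and 29.3 ± 11.0 CPM. The lowest level was that of inhibitory neurons, 8.49 ± 2.90 CPM. No pair of neighbours in the order was separated by its ranges.

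**Figure D2:**
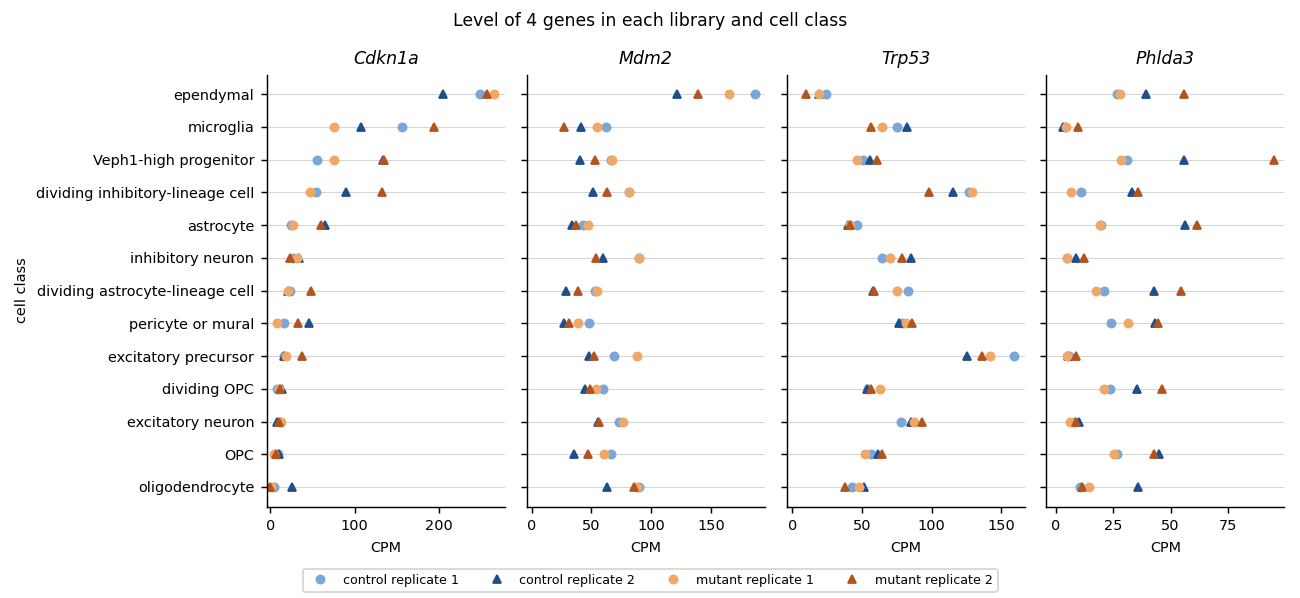
Level in CPM (horizontal axes) of *Cdkn1a*, *Mdm2*, *Trp53* and *Phlda3* in each of 13 classes (vertical axis) and library (control blue, mutant orange, replicate 1 circles, replicate 2 triangles). The ependymal points of *Cdkn1a* (205 to 265 CPM) and *Mdm2* (122 to 187 CPM) lie to the right of all other classes, and in *Phlda3* the triangles lie to the right of the circles in astrocytes.

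Among the genes of apoptosis, *Bax* encodes an effector that permeabilizes the mitochondrial outer membrane. It was the most evenly expressed member: the means of 13 classes lay between 166 ± 11.9 CPM in inhibitory neurons and 276 ± 27.7 CPM in oligodendrocytes (307, 290, 248 and 258 CPM). Ependymal cells lay apart at 105, 108, 80.9 and 108 CPM, below every other class in every library.

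*Bbc3* encodes the BH3-only protein PUMA, which neutralizes BCL2 proteins. Excitatory neurons had 38.1, 35.7, 42.6 and 41.6 CPM (mean 39.5 ± 3.15), with overlapping ranges in ependymal cells (33.6 ± 12.5) and oligodendrocytes (29.6 ± 8.33). Excitatory precursors had 10.2 ± 0.989 CPM, below the neurons in every library. Astrocytes had 5.47 ± 0.963 CPM, and dividing OPCs had 1.82 ± 1.47 CPM from 20 counts.

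*Pmaip1* encodes NOXA, another BH3-only protein, and was counted chiefly in microglia, at 37.8, 35.0, 31.7 and 36.8 CPM (161 counts). Astrocytes had 0.640, 0.794, 1.89 and 1.15 CPM from 63 counts, with no overlap with microglia. Oligodendrocytes had 0 counts in every library. Of the classes with too few cells to test, endothelial cells had 22 counts of *Pmaip1* (8.74 CPM over the pooled libraries) and fibroblasts had 0.

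*Trp53inp1*, which encodes a stress-induced protein that acts with p53 and in autophagy, was highest in ependymal cells, at 56.7, 66.6, 72.5 and 91.6 CPM. Excitatory neurons had 37.9, 51.3, 63.9 and 77.8 CPM and overlapped with them, although ependymal cells were higher in each of the 4 libraries. The lowest level was that of dividing OPCs, 16.2 ± 4.53 CPM.

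*Phlda3* encodes a pleckstrin-homology protein that competes with AKT for membrane lipids. *Veph1*-high progenitors had 30.9, 28.4, 56.0 and 94.9 CPM, astrocytes had 19.6, 19.3, 56.1 and 61.5 CPM, and ependymal cells had 26.6, 27.8, 39.2 and 56.0 CPM. In all 3 classes the replicates did not overlap and the genotypes did. Excitatory neurons, inhibitory neurons, excitatory precursors and microglia lay at 5.34 to 8.32 CPM, and each of the other classes was higher than excitatory neurons in every library. Fibroblasts, too few to test, had 69.3 CPM over the pooled libraries from 104 counts. *Eda2r*, a receptor of the tumor necrosis factor family on the X chromosome, had 10.3, 7.99, 9.24 and 6.94 CPM in excitatory precursors (mean 8.62 ± 1.47) and its lowest mean in microglia, 0.704 CPM from 2 counts.

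The mean over a class does not show how the transcripts are spread over cells. When each cell was thinned to 2000 UMIs, *Cdkn1a* was found in 32.7, 32.5, 30.9 and 37.2% of ependymal cells, and the exact 95% intervals, which cover counting error only, ran from 24.4 to 44.6% over the 4 libraries. It was found in 3.97, 4.07, 7.10 and 8.17% of astrocytes. Without thinning, these shares were 84.3, 90.4, 75.9 and 80.9% of ependymal cells and 11.5, 9.30, 18.9 and 17.4% of astrocytes. Most astrocytes therefore had no *Cdkn1a* UMI, while single astrocytes had up to 20, 31, 37 and 28 UMIs. In oligodendrocytes, 0 of 125, 209, 36 and 52 thinned cells had a *Cdkn1a* UMI, which allows shares of up to 2.91, 1.75, 9.74 and 6.85% (upper Clopper-Pearson bounds). Without thinning, 3, 2, 5 and 0 of these cells had one. The shares in ependymal cells lay above these bounds in all 4 libraries. The intervals of astrocytes and oligodendrocytes were separate in both libraries of replicate 1 and overlapped in those of replicate 2, where a difference was not detectable at this number of cells. Thinned shares of 1.40 to 2.90% in excitatory neurons were low as well. Free RNA in the droplets can give some UMIs in any class. Its amount was not estimated, so the low shares in oligodendrocytes and excitatory neurons cannot be told apart from it. *Trp53* was found in 27.0, 24.1, 23.0 and 20.7% of thinned excitatory precursors and in 7.48, 6.02, 3.14 and 1.60% of thinned ependymal cells.

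Because *Cdkn1a* was concentrated in few cells of most classes, cells with and without a *Cdkn1a* UMI after thinning were compared in the classes with at least 20 such cells in every library: astrocytes (48, 46, 61 and 76 cells), *Veph1*-high progenitors (26, 26, 22 and 25) and ependymal cells (83, 81, 59 and 70). This comparison was extended from the members to all genes after values had been seen and is a description with no test. Levels were taken from all UMIs of these cells. In all 3 classes, the cells without therefore include cells whose *Cdkn1a* UMIs were removed by thinning. Differences are log2 ratios of CPM with 10 CPM added, and genes were ranked by the lowest of the 4 ratios.

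In astrocytes with *Cdkn1a*, *Phlda3* was counted at 80.3, 128, 287 and 242 CPM, against 17.1, 14.8, 37.9 and 46.4 CPM in the other astrocytes, and it ranked 3 among the 32284 other genes. *Ccng1* was counted at 70.9, 71.5, 146 and 125 CPM against 18.2, 17.1, 31.7 and 30.2 CPM (rank 8). For both genes the levels with and without *Cdkn1a* did not overlap. *Trp53inp1*, *Eda2r* and *Bbc3* ranked 9, 11 and 12, with log2 ratios of at least 1.46, 1.31 and 1.29. *Bax* was higher by 0.74 to 1.05, *Mdm2* by 0.35 to 0.75 and *Trp53* itself by 0.18 to 0.60. *Pmaip1* was higher by 0.10 to 1.18, from 24 counts in the cells with and 39 in those without *Cdkn1a*. All 9 other members were higher in every library, against 6.42% of the 17706 genes with at least 10 counts.

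Of 29 other known p53 targets, taken from fixed lists, 16 were higher in every library in the same astrocytes. Among the 20 leading genes were 5 members and 5 of these targets: *Ephx1* (an epoxide hydrolase), *Gdf15* (a stress-induced secreted factor), *Psrc1*, *Dcxr* and *Fas* (a death receptor). *Ephx1* was counted at 72.3, 89.8, 197 and 123 CPM against 14.9, 14.9, 35.9 and 32.1 CPM. *Gdf15* was counted at 26.8, 19.8, 38.3 and 30.7 CPM against 1.02 to 2.08 CPM. The first and second ranks were held by *Cox6b2*, with ratios of 1.94 to 2.88, and *Ano3*, with 1.78 to 2.86, which were on none of the lists. Of the 14 p53 family members and regulators, 3 were higher and 2 lower in every library, against 6.42% of the 17706 genes that were higher. The share of all genes lower in every library is not given here, and whether this list differed was not tested. Of the 8 listed immediate early genes, which rise when tissue is dissociated, only *Fos* and *Jun* were compared in these cells. Each was higher in 3 of 4 libraries. Median mitochondrial shares were 3.13, 3.81, 6.83 and 5.62% in astrocytes with *Cdkn1a* and 3.55, 3.72, 6.43 and 5.69% in those without.

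*Veph1*-high progenitors showed the same arrangement. *Phlda3* held the first rank, at 182, 146, 196 and 374 CPM with *Cdkn1a* against 20.9, 17.8, 31.3 and 39.4 CPM without. *Ccng1*, *Bbc3* and *Trp53inp1* ranked 4, 8 and 17. In all, 8 of 9 members and 18 of 29 other targets were higher in every library, against 7.72% of 15201 genes, and *Psrc1*, *Aen*, *Sesn2* and *Ephx1* were among the 20 leading genes.

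In ependymal cells, where *Cdkn1a* was most abundant, no member and none of the 29 other listed targets was among the 20 leading genes. *Phlda3* was counted at 29.7, 37.7, 45.9 and 61.9 CPM with and at 22.9 to 52.2 CPM without *Cdkn1a*. Only *Phlda3*, *Mdm2* and *Bax* of the 9 members and 3 of 29 other targets were higher in every library, against 11.1% of 16970 genes. Because *Cdkn1a* was found in most ependymal cells without thinning, the thinned split separates them less sharply, with *Cdkn1a* itself at 393 to 451 CPM against 120 to 197 CPM. The leading genes included *Mcidas* and *Deup1*, which drive and carry out the amplification of centrioles in cells that form many cilia. Of the 2 ependymal clusters, the one rich in *Deup1* (698 to 1108 CPM) had 341, 325, 315 and 325 CPM of *Cdkn1a*. The other, rich in *Tmem212*, had 191, 226, 139 and 215 CPM. The clusters did not overlap, with 58 to 86 and 129 to 168 cells per library. Median doublet scores were higher in cells with *Cdkn1a* than in those without in all 4 libraries, both in ependymal cells and in *Veph1*-high progenitors, and in 2 of 4 libraries in astrocytes. Without the highest scores, 5, 4 and 0 members were among the 20 leading genes in astrocytes, *Veph1*-high progenitors and ependymal cells.

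**Figure D3:**
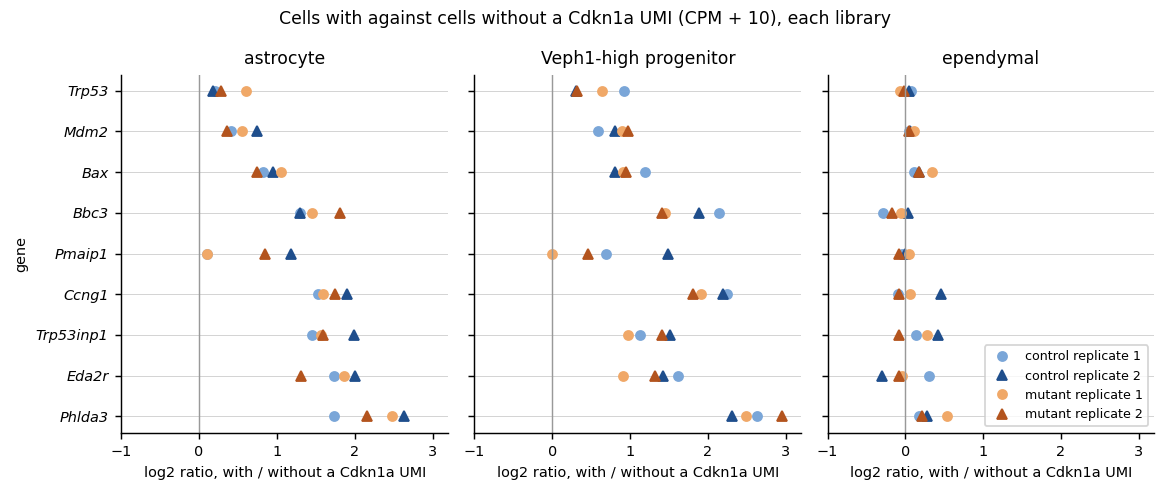
Log2 ratio (horizontal axes, 10 CPM added) of the level of each of 9 genes (vertical axis) in 3 classes, with a point per library. Cells with a *Cdkn1a* UMI after thinning are set over cells without one after thinning. In astrocytes and *Veph1*-high progenitors *Phlda3* and *Ccng1* lie above 1.5 in every library, whereas the ependymal points lie near 0.

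Resting and dividing cells of a lineage were then compared within the libraries by edgeR's quasi-likelihood test on summed counts with library as a block, adjusted over all genes by the Benjamini-Hochberg method. These contrasts changed much of the transcriptome. Between dividing astrocyte-lineage cells and astrocytes, 51.7% of 14526 tested genes passed the threshold (adjusted p under 0.05), with 26.5% higher and 25.2% lower in dividing cells, and of 10 members 1 was higher and 3 were lower. *Trp53* was counted at 82.8, 75.5, 57.8 and 58.5 CPM in dividing cells against 46.7, 41.8, 40.2 and 41.3 CPM in astrocytes and rose by 0.72 ± 0.08 (log2 ± SE, adjusted p = 1.3e-05), higher in 4 of 4 libraries. *Trp53inp1* fell by 0.62 ± 0.08 (adjusted p = 8.4e-05) and *Ccng1* fell by 0.37 ± 0.10 (adjusted p = 0.0070), each lower in 4 of 4 libraries. *Cdkn1a* fell by 0.55 ± 0.19 (adjusted p = 0.031), but this rested on control replicate 2, with a difference of -1.53 in log2(CPM + 2) against -0.31 to -0.03 in the other libraries. Without that library the difference was -0.21 (adjusted p = 0.13). *Bbc3*, at -0.44 ± 0.22, passed the threshold only without high doublet scores (-0.78, adjusted p = 0.028) or without mutant replicate 1 (-0.67, adjusted p = 0.042). *Mdm2*, *Bax*, *Eda2r*, *Phlda3* and *Pmaip1* did not pass it.

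In the inhibitory lineage, 63.3% of 13210 genes passed the threshold (31.2% higher and 32.1% lower in dividing cells), and 6 of 9 tested members rose and 2 fell in dividing cells relative to inhibitory neurons. *Cdkn1a* was counted at 54.8, 47.4, 90.4 and 133 CPM in dividing cells against 26.7, 31.8, 34.1 and 23.9 CPM in neurons. The groups did not overlap, and *Cdkn1a* rose by 1.20 ± 0.17 (adjusted p = 4.0e-06). *Trp53* rose by 0.75 ± 0.11, *Bax* by 0.49 ± 0.08 and *Eda2r*, from 107 and 35 counts, by 1.80 ± 0.30. *Phlda3* and *Ccng1* rose by 1.16 ± 0.20 and 0.92 ± 0.17, but with finer clusters their differences were 0.17 (adjusted p = 0.57) and 0.48 (adjusted p = 0.066). *Bbc3* fell by 0.85 ± 0.18 and *Trp53inp1* by 0.40 ± 0.13, each lower in at least 3 of 4 libraries. *Trp53inp1* lost its call with finer clusters (-0.23, adjusted p = 0.14) and without mutant replicate 1 (-0.41, adjusted p = 0.061). *Mdm2* did not pass the threshold, and *Pmaip1* was too low to test.

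Between dividing OPCs and OPCs, 37.9% of 12866 genes passed the threshold (20.2% higher and 17.7% lower in dividing cells), and of 9 members 1 was higher and 2 were lower. *Bbc3* was counted at 1.35, 3.38, 0 and 2.56 CPM in dividing OPCs against 6.82, 7.97, 9.84 and 11.3 CPM in OPCs. It fell by 1.77 ± 0.32 (adjusted p = 8.3e-05), and the groups did not overlap. *Trp53inp1* fell by 0.45 ± 0.15 (adjusted p = 0.019) and was lower in 4 of 4 libraries, but it was not called by DESeq2 (adjusted p = 0.12), without control replicate 1 (-0.41, adjusted p = 0.069) or without mutant replicate 2 (-0.31, adjusted p = 0.16). *Cdkn1a* rose by 0.59 ± 0.22 (adjusted p = 0.034) in the main test, was higher in 3 of 4 libraries, and lost its call with DESeq2 (adjusted p = 0.22) and without mutant replicate 1 (0.33, adjusted p = 0.31), control replicate 2 (0.62, adjusted p = 0.058) or mutant replicate 2 (0.56, adjusted p = 0.096). *Trp53inp1* thus fell in dividing cells of all 3 lineages in the main test, and *Bbc3* in those of the inhibitory lineage and of OPCs.

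Oligodendrocytes differed from OPCs in 58.4% of 12889 genes (27.6% higher and 30.8% lower), and of 9 members 5 were higher and 1 was lower. *Bbc3* was counted at 31.8, 24.3, 40.3 and 21.9 CPM in oligodendrocytes and rose by 1.91 ± 0.19 relative to OPCs (adjusted p = 2.4e-08). *Ccng1* rose by 1.02 ± 0.15, *Trp53inp1* by 0.90 ± 0.14, *Mdm2* by 0.84 ± 0.11 and *Bax* by 0.67 ± 0.09, each higher in 4 of 4 libraries. *Phlda3* fell by 0.76 ± 0.18 (adjusted p = 9.9e-04). *Cdkn1a*, at -0.52 ± 0.45 from 30 counts in oligodendrocytes, passed the threshold only without control replicate 2 (-1.58, adjusted p = 0.0082). With library totals in place of TMM scaling the median gene lay at -0.28 rather than -0.05, and these 6 calls and their directions held, with *Bbc3* at 1.67 and *Bax* at 0.42. Under that scaling *Trp53*, at -0.10 ± 0.11 in the main test, also passed the threshold (-0.34, adjusted p = 0.020), and 2305 of the 7722 genes called were higher in oligodendrocytes, against 3551 of 7523 in the main test.

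**Figure D4:**
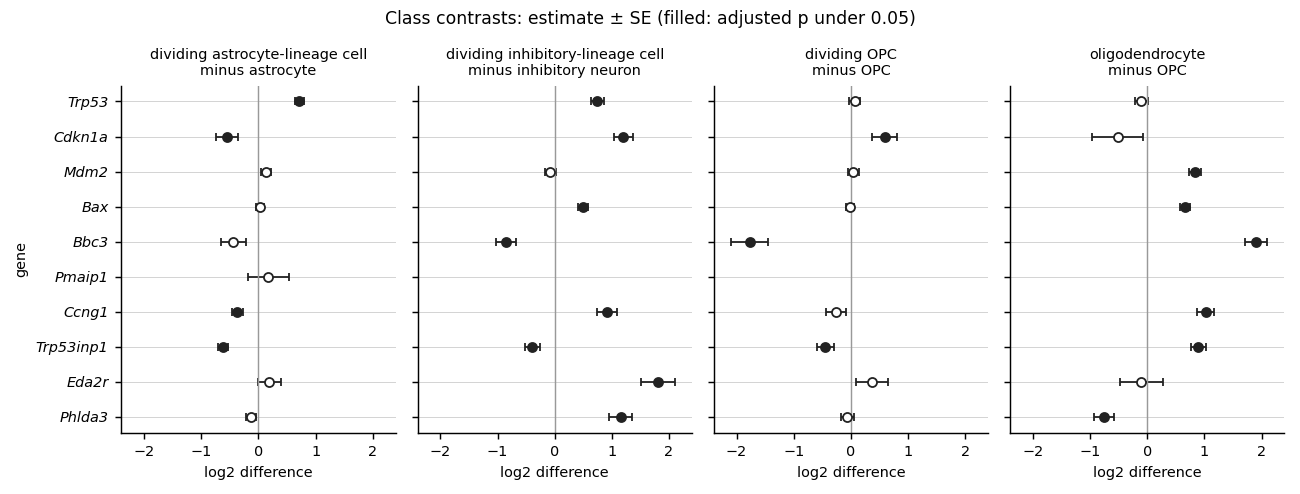
Log2 difference ± SE (horizontal axes, edgeR) of each member (vertical axis) in 4 contrasts between classes. Filled points passed an adjusted p of 0.05, and *Bbc3* lies at -1.77 in dividing OPCs against OPCs and at 1.91 in oligodendrocytes against OPCs.

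Further genes of the pathway came from fixed lists. Their counts stand beside the shares of all tested genes, of which 26.5, 31.2 and 20.2% rose and 25.2, 32.1 and 17.7% fell in the dividing cells of the astrocyte lineage, the inhibitory lineage and OPCs, and 27.6% rose and 30.8% fell in oligodendrocytes. Whether a list differed from these shares was not tested. Of the p53 family and regulators, 8 of 12 tested genes rose and 1 fell in dividing astrocyte-lineage cells, 7 of 11 rose and 1 fell in dividing inhibitory-lineage cells, and 9 of 12 rose and 1 fell in dividing OPCs. The checkpoint kinase gene *Chek2* rose in all 3, by 2.90 ± 0.12, 4.15 ± 0.20 and 4.07 ± 0.17. *Chek1*, which encodes the other checkpoint kinase, rose by 2.43 ± 0.13, 1.98 ± 0.16 and 0.86 ± 0.18. *Cdkn2a*, whose products include the MDM2 inhibitor ARF, rose by 2.47 ± 0.34 in dividing astrocyte-lineage cells and by 1.77 ± 0.34 in dividing OPCs. Its transcripts were counted together, so the rise is not that of ARF alone. *Ppm1d*, a phosphatase that turns the response off, rose by 0.74 ± 0.08, 0.73 ± 0.10 and 0.43 ± 0.10. In oligodendrocytes 3 of 10 rose and 3 fell, among them *Hipk2*, a kinase of p53 (1.23 ± 0.09), and *Trp53bp1* (-0.91 ± 0.12).

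Of the targets for arrest and repair, 2 of 14 rose and 4 fell in dividing astrocyte-lineage cells, 6 rose and 4 fell in dividing inhibitory-lineage cells, and 3 rose and 2 fell in dividing OPCs. The median log2 differences of the list were -0.25, 0.18 and -0.08, against -0.02, -0.03 and -0.03 over all genes tested. The largest differences were those of *Gtse1* (4.96 ± 0.18, 4.76 ± 0.28 and 4.96 ± 0.22) and *Psrc1* (3.33 ± 0.29, 4.15 ± 0.15 and 4.11 ± 0.17), which both encode proteins of the mitotic microtubules. *Sesn2*, which encodes a stress-induced inhibitor of mTORC1, rose by 1.94 ± 0.34 in the inhibitory lineage and fell by 0.46 ± 0.18 in the astrocyte lineage. In oligodendrocytes 4 of 13 rose and 7 fell, among them *Gadd45a*, a growth arrest gene (2.07 ± 0.17), and the kinase gene *Plk2* (-2.49 ± 0.20).

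Of the targets in death and metabolism, 3 of 14, 4 of 11 and 1 of 10 tested genes rose and 5, 1 and 1 fell in the dividing cells of the astrocyte lineage, the inhibitory lineage and OPCs. The medians of the list were 0.06, 0.46 and -0.10 on the log2 scale. *Gdf15* rose by 0.87 ± 0.21 and 2.10 ± 0.41 in the first and second of these, and *Pidd1*, which encodes a death domain protein that activates caspase-2, by 1.13 ± 0.36 and 1.67 ± 0.24. *Fas* fell by 1.04 ± 0.19 in the astrocyte lineage. In oligodendrocytes 5 of 10 rose and 3 fell, led by *Zfp365* (3.01 ± 0.10) and *Dcxr* (2.71 ± 0.25). Of the BCL2 family and caspases, 4 of 14 rose and 4 fell in oligodendrocytes, among them the antiapoptotic *Bcl2* (-2.80 ± 0.21). In the dividing cells 4 of 14, 5 of 15 and 2 of 14 of this list rose and 3, 3 and 1 fell, with *Hrk*, another BH3-only gene, at -2.10 ± 0.18 in the inhibitory lineage.

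The immediate early genes moved with some of these contrasts. All 8 were lower in dividing astrocyte-lineage cells, led by *Atf3* (-2.10 ± 0.28), and 6 of 7 were lower in oligodendrocytes, led by *Egr1* (-3.96 ± 0.22). In dividing inhibitory-lineage cells 3 of 8 were higher and 2 lower, and in dividing OPCs 2 of 7 were lower. Their part in the members' differences was not tested.

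The genotypes were compared to ask whether loss of 1 *Chd8* allele changed the pathway. Over all cells of a library, edgeR called 0 of 19813 genes (0%), 16 passed an unadjusted p of 0.05 (0.0808%), and no member passed either threshold. *Cdkn1a* was counted at 48.7 and 67.7 CPM in the controls and at 46.9 and 68.8 CPM in the mutants (log2 difference -0.03 ± 0.34 SE). *Trp53* was counted at 68.7 and 60.0 CPM against 65.8 and 61.7 CPM (-0.03 ± 0.21). *Mdm2* was counted at 73.1 and 45.4 CPM against 72.8 and 50.7 CPM (0.05 ± 0.35). For each of these genes the genotypes overlapped.

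The other members lay between -0.40 ± 0.47 (*Pmaip1*, 331 counts) and 0.09 ± 0.71 (*Phlda3*), with adjusted p = 0.99999 for all 10 by edgeR. The standard errors were 0.21 to 0.71, and much of this spread lay between the replicates. With the replicate number as a block, the standard errors were 0.13 to 0.33 and no member was called, while 872 genes rather than 16 passed an unadjusted p of 0.05 over all cells and 0 passed the adjusted threshold. *Phlda3* was counted at 17.4 and 17.4 CPM in the control and mutant of replicate 1 and at 42.3 and 47.0 CPM in those of replicate 2. *Ccng1* was counted at 16.4 and 17.2 CPM against 32.9 and 30.2 CPM. Within a replicate, the log2 differences between mutant and control were 0.00 and 0.15 for *Phlda3* and 0.06 and -0.12 for *Ccng1*. Values over all cells also depend on the mix of classes, which differed between libraries. Microglia, the class highest in *Pmaip1*, numbered 203, 72, 35 and 51 cells. Within microglia, *Pmaip1* differed between genotypes by -0.0089 ± 0.34. Inhibitory neurons, low in *Phlda3* and *Ccng1*, numbered 1293, 1104, 282 and 272 cells. The part of this mix in the values over all cells was not tested.

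**Figure D5:**
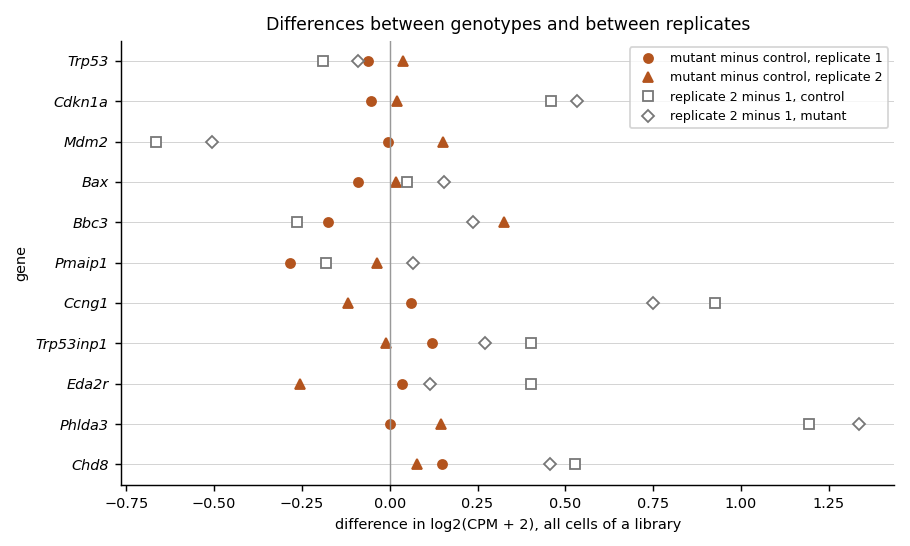
Differences in log2(CPM + 2) (horizontal axis) over all cells for the 10 members and *Chd8* (vertical axis), between mutant and control within each replicate (filled) and between replicates within each genotype (open). The open points of *Phlda3* lie at 1.19 and 1.34 and its filled points at 0.00 and 0.15.

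Within the 14 classes, edgeR again called 0 genes (0% in each), while 247 of 165946 tests of a gene in a class passed an unadjusted p of 0.05 (0.149%). Among the 123 tests of a member in a class, 1 passed that unadjusted threshold. It was *Eda2r* in oligodendrocytes, where 47 of 9917 genes did (0.474%), at 6.18 and 7.20 CPM in the controls against 1.49 and 0.951 CPM in the mutants. The groups did not overlap, but the values rest on 26 counts in all, and the difference of -1.72 ± 0.55 had an adjusted p of 0.99998. The difference between mutant and control was positive in both replicates in 28 of the 123 pairs, negative in both in 21, and of opposite sign in 74. Its median size within a replicate was 0.19 in log2(CPM + 2), against 0.37 between the replicates of a genotype. These signs and sizes were not taken over all genes tested, so they do not show whether the members differ from other genes. With the replicate number as a block, which pairs libraries of the same software version, 142 genes were called in 10 of 14 classes and none over all cells, and no member was among them (lowest adjusted p = 0.79). In this edgeR fit, 5 tests of a member in a class passed an unadjusted p of 0.05, while 295 to 650 genes per class did. The main fit held 123 tests of a member and 7889 to 14968 genes per class. The numbers tested with the block are not given here, so these are counts and not shares. Whether members passed more often than all genes was not tested. Of the further listed genes, 67 were tested over all cells, and in 816 tests over all cells and classes none passed the adjusted threshold.

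For each member, the genes with the most similar pattern over the 14 classes were taken from those at 10 CPM or more in some class of every library, by the lowest of the 4 correlations within libraries (Pearson's r of log2(CPM + 1)). The classes of a library share its depth, and the values are descriptive. *Trp53* was most like *Mta2* (r = 0.937 to 0.957), *Mapk1ip1l* and *Spata5*. *Cdkn1a* was most like *2900026A02Rik* (0.773 to 0.818), *Btg2* (0.767 to 0.917), which is itself on the list of p53 targets, and *Idh2*. *Phlda3* was most like *Rcn1* (0.866 to 0.893), *Fat1* and *Dag1*, and *Pmaip1* was most like *Arhgap25* (0.884 to 0.974), *Tlr2* and *Gm2629*. The leading genes were *Dis3l2*, *E130317F20Rik* and *Srp14* for *Mdm2*, *Leng1*, *Pinx1* and *Atg3* for *Bax*, and *Kdm7a*, *Prr13* and *Bnip3* for *Bbc3*. They were *Pex7*, *Ptgr2* and *Tmem219* for *Ccng1* and *Rps6ka2*, *Hcfc1r1* and *Coq8b* for *Trp53inp1*, and the lowest r of the genes named for these 5 members was 0.653 or more. *Eda2r* did not reach 10 CPM in any class in every library.

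In the annotation used here (GRCm38, GENCODE vM21), the members are spread over 8 chromosomes. *Trp53* spans chr11:69580359-69591873 and *Ccng1* chr11:40748552-40755311, *Bax* chr7:45461697-45466898 and *Bbc3* chr7:16308393-16318205. *Cdkn1a* spans chr17:29090976-29100727, *Mdm2* chr10:117688875-117710758, *Trp53inp1* chr4:11156431-11174379, *Eda2r* chrX:97333840-97377216, *Phlda3* chr1:135766119-135769136 and *Pmaip1* chr18:66458533-66465565.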

How the data were processed

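Libraries were grouped by the labels (control or mutant, replicate 1 or 2). Reads were aligned to mm10 with Cell Ranger (version 3.0 per the labels' processing notes, 7.0.0 in the study's methods, 7.0.0 or 5.0.1 per the file headers), and the authors deposited the counts (raw UMIs of every gene in every barcode). Versions differ in whether intronic reads are counted by default. A cell was kept if it had 2000 to 40000 UMIs, 1000 genes or more and no more than 10% of its UMIs from mitochondrial genes, and doublets were not removed. They were centred within each library and clustered with scanpy 1.11.5 (2000 variable genes, 30 components, 15 neighbours, Leiden resolution 1, 30 clusters) without 77 pathway genes, and named from fixed markers. The naming rule and the dividing score of 3 were set after cells had been examined. The members and lists were chosen with earlier results of these data known.

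Counts were summed per class and library with at least 20 cells, and genes passing filterByExpr were compared by the quasi-likelihood test of edgeR 4.0.16 (R 4.3.3, TMM scaling, prior count 2, Benjamini-Hochberg adjustment). Genotype was the only term of the main test. Each SE of an edgeR difference was back-calculated as the absolute log2 difference divided by the square root of the F statistic. Replicate numbers pair libraries by software version, and deviations of same-numbered libraries from their group means correlated at 0.609 to 0.897 over genes, so a replicate block was an alternative. The named genes are the members, *Chd8*, up to 5 genes per list and contrast past the threshold with the largest change, and 3 genes of like pattern per member. *Cox6b2*, *Ano3*, *Mcidas*, *Deup1*, *Tmem212*, *Xist* and the targets, *Fos* and *Jun* given for cells with *Cdkn1a* were named after their values were seen. Alternatives were DESeq2 1.42.0, library totals, no filter, 10 counts in every library, a mitochondrial limit of 5%, removal of the 5% highest doublet scores, resolution 2, unthinned shares and each library left out. Fits were tested on simulated data. The values of 1 class and of 1 listed gene are not reported here, though both stand in the counts.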

Additional observations from a re-analysis of the deposited data

Results flagged for a closer look

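In 3 cases a member moved one way in all 4 libraries in the dividing cells of a lineage and the opposite way in all 4 libraries in another. *Cdkn1a* was higher in dividing cells than in neurons of the inhibitory lineage and lower in dividing cells than in astrocytes, and the median log2 differences of these contrasts lay 1.47 apart. *Ccng1* did the same, with medians 1.21 apart. *Ccng1* was also lower in dividing OPCs than in OPCs, so that this contrast lay below that of the inhibitory lineage by a difference of -1.08, although the difference in OPCs itself did not pass the threshold (-0.26 ± 0.17 SE, edgeR adjusted p = 0.23). The differences between contrasts were not tested. The *Cdkn1a* difference in the astrocyte lineage was near 0 in control replicate 1 (-0.03), and the *Ccng1* difference in OPCs was near 0 in mutant replicate 1 (-0.04). The fall of *Cdkn1a* in the astrocyte lineage rested on control replicate 2 (-1.53). Without that library the fitted difference was -0.21 and did not pass the threshold. With finer clusters, the rise of *Ccng1* in the inhibitory lineage did not pass it either.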

How the results depend on the processing

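The absence of genotype calls over all cells held under every alternative run. By class, the replicate block gave 30 calls in astrocytes, 25 in ependymal cells, 44 in microglia, 12 in OPCs, 10 in oligodendrocytes, 9 in dividing OPCs, 6 in excitatory precursors, 3 in *Veph1*-high progenitors and 1 in excitatory neurons, and changed no member's call. Without a filter there were 8 in dividing inhibitory-lineage cells, 6 in excitatory precursors, 19 in microglia, 11 in oligodendrocytes and 21 in mural cells, and *Cdkn1a* was called in oligodendrocytes from 30 counts. DESeq2 called 1 gene, in mural cells, and leaving out a library gave 0 to 1 in microglia. The contrast of dividing OPCs with OPCs had 2712 calls by DESeq2 against 4876, and that of oligodendrocytes with OPCs had 4391 with 10 counts in every library against 7523. With library totals, 2085 of 5286 genes called in dividing OPCs were higher, against 2597 of 4876.

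Members' genotype differences kept their sign in 78 of 80 values, except *Trp53inp1* without high doublet scores (-0.017) and *Ccng1* at a mitochondrial limit of 5% (0.029). With libraries left out, 17 of 40 reversed, over ranges of -0.81 to 0.91 for *Phlda3*, -0.55 to 0.55 for *Ccng1*, -0.23 to 0.41 for *Mdm2*, -0.34 to 0.27 for *Cdkn1a*, -0.18 to 0.30 for *Trp53inp1*, -0.079 to 0.21 for *Bbc3*, -0.14 to 0.030 for *Bax*, -0.090 to 0.050 for *Trp53* and -0.45 to 0.15 for *Eda2r*. In the contrasts, 217 of 242 values kept direction and call. In dividing astrocyte-lineage cells *Bax* reversed with DESeq2 (-0.013), library totals (-0.016), no filter (-0.036) and 10 counts (-0.012), and ranged from -0.029 to 0.064, with *Pmaip1* at -0.15 to 0.38, as libraries were left out. In dividing OPCs *Mdm2* was -0.037 with library totals, -0.047 without a filter and -0.010 at 5%, *Trp53* was -0.011 with library totals and -0.020 without a filter, and leaving out libraries gave -0.093 to 0.053 for *Bax*, -0.028 to 0.072 for *Mdm2* and -0.082 to 0.12 for *Trp53*. At resolution 2, *Bax* was 0.0067 in dividing OPCs, *Mdm2* was 0.14 in dividing inhibitory-lineage cells, and *Trp53* and *Eda2r* were 0.13 and 0.30 in oligodendrocytes, where *Eda2r* ranged from -0.56 to 0.44 as libraries were left out. *Cdkn1a* in dividing OPCs also lost its call with library totals (0.52), without high doublet scores (0.35), at resolution 2 (0.51) and without each of 3 libraries. The causes were not tested. Unthinned, *Cdkn1a* was found in a mean of 14.3% of astrocytes, 24.0% of *Veph1*-high progenitors, 82.8% of ependymal cells and 5.88% of excitatory neurons. After seeing the data, the cells with *Cdkn1a* were also compared without high doublet scores, and 5, 4 and 0 members remained among the 20 leading genes in astrocytes, *Veph1*-high progenitors and ependymal cells. The limit of 5% was not run for microglia and oligodendrocytes, which then had under 20 cells in a library, and resolution 2 gave no *Veph1*-high class.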

Other observations

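Endothelial cells (166 cells, with fewer than 20 in control replicate 1) had *Cdkn1a* at 135, 137, 150 and 194 CPM and *Trp53* at 194, 119, 108 and 108 CPM. Their pooled *Cdkn1a* level was 160 CPM from 402 counts, while *Phlda3* was at 2.78 CPM from 7 counts. Choroid plexus cells, 25 in all, had 44 counts of *Cdkn1a* (81.4 CPM over the pooled libraries) and 5 of *Trp53* (9.24 CPM) and 14 of *Mdm2* (25.9 CPM), too few cells for a comparison. In fibroblasts, 103 cells in all, *Cdkn1a* was at 26.0 CPM from 39 counts.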
